A study of Mus musculus with 6 samples.

Results

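A set of 10 transcription factor genes of effector lymphocytes, Irf1, Irf2, Irf4, Irf5, Irf8, Batf, Batf3, Bach2, Prdm1 and Bhlhe40, was examined in early T cell progenitors with and without the E proteins E2A and HEB. They were chosen by symbol, as the rows of the authors' deposited table that carry these 10 names among 22609 rows. All 10 were among the 16241 genes with an authors' p-value, and all had a mean over both groups of at least 10. RNA was sequenced from cells sorted out of the fetal thymus of C57BL/6 mice as CD4- CD8- Lin- CD44+ CD25- ckit+, the gate of the most immature thymocytes. The 3 control libraries came from mice labelled wild type. The 3 double-knockout (dKO) libraries came from E2Afl/flHEBfl/flIL7RCre mice, in which floxed E2A (the product of Tcf3) and floxed HEB (the product of Tcf12) are deleted by a Cre driven from the interleukin 7 receptor locus. A YFP gate was added for the dKO cells alone, so this gate and the genotype cannot be told apart. The labels used here give no fetal age and leave it unsaid whether animals were pooled or each library had its own animal. All p-values therefore measure only how far these libraries lie apart, and that spread may be technical. The series concerns the balance of E and Id proteins when lymphoid cells take an innate or an adaptive fate.

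The values are the authors' mean normalised count per group, that is, reads divided by a size factor for the library's depth and averaged over 3 libraries. A gene was called where the authors' adjusted p was under 0.05. For genes with few reads, the reads of each library could be worked out from the group mean. Libraries are named by their size factors, 0.823, 0.952 and 1.02 in control and 1.04, 1.08 and 1.16 in dKO, since the means do not show which replicate each one is. The depth was about 18200000 to 22600000 reads per control library and 24300000 to 27000000 reads per dKO library. The cDNA was amplified from few cells, so reads are not independent molecules. Both targeted genes were lower in dKO: Tcf3 had means of 8931 in control and 364 in dKO, and Tcf12 means of 3845 and 562, by the authors' deposited table. Of the 9 markers of early T cell progenitors, 4 were called higher, 4 lower and 1 did not pass. By the authors' deposited table, Kit rose from 14094 to 19067, Gata3 from 7051 to 22961 and Ptprc from 12323 to 17415. Notch1 fell from 10176 to 1829 and Flt3 from 1080 to 327 by the authors' deposited table. Cd44, with means of 3220 and 2765 by the authors' deposited table, did not pass.

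The IRF proteins share a DNA-binding domain for sites with GAAA repeats. IRF1 and IRF2 act on interferon response genes, IRF2 often as the antagonist of IRF1. IRF4 and IRF8 bind DNA weakly alone and pair with Ets factors such as PU.1 or with AP-1 factors. BATF and BATF3 are small AP-1 proteins without an activation domain that pair with JUN proteins and recruit IRF4 or IRF8 to joint sites. BACH2 pairs with small Maf proteins and represses effector genes, and it is known for keeping lymphocytes in a naive or memory state. Blimp-1, the product of Prdm1, is a repressor that drives terminal differentiation, and in B cells BACH2 holds Prdm1 down. BHLHE40 is a basic helix-loop-helix repressor that binds E-boxes of the clock type and is known for its part in cytokine production by T cells. E proteins bind E-boxes, the motif CANNTG, and most often the forms CAGCTG and CAGGTG.

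Of the 10 genes, 4 rose in dKO, none fell and 6 did not pass. Batf, Batf3, Irf8 and Bhlhe40 were the 4. Before adjustment, Prdm1 (higher in dKO, the authors' unadjusted p = 0.0475) and Irf5 (lower, the authors' unadjusted p = 0.0248) were also under 0.05. The share of all genes under 0.05 before adjustment was not counted. It cannot be smaller than the 29.0% of all tested genes called in either direction after adjustment. Over all tested genes 15.1% were called higher, 13.8% lower and 29.0% in either direction. Over the tested genes with a mean of at least 10, a level that all 10 reached, 18.9% were called higher, 17.2% lower and 36.2% in either direction. The dKO mean was above the control mean for 8 of the 10 genes and below it for Irf5 and Bach2. The median log2 change of the 10 was 0.82, beside -0.01 for all tested genes.

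**Figure D1:**
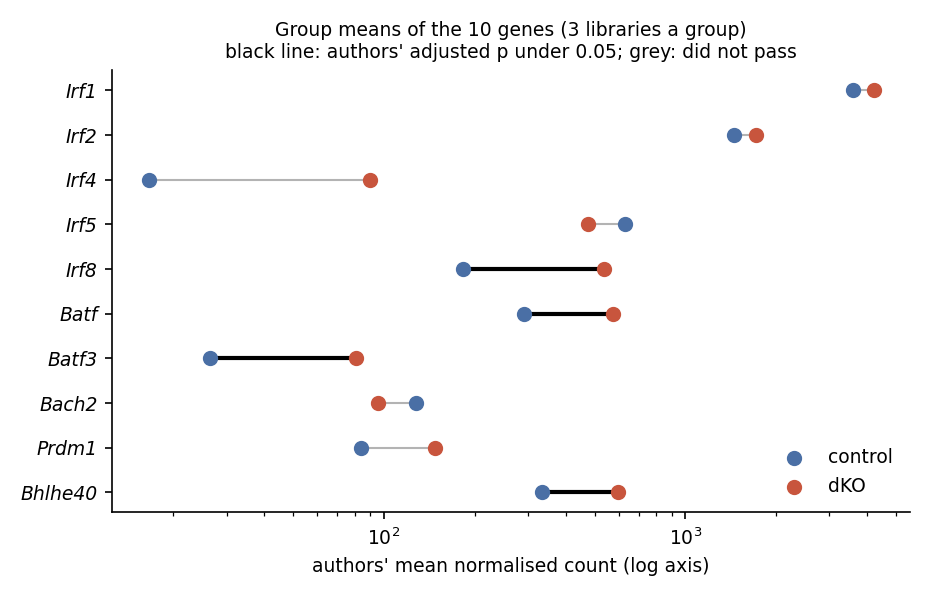
Authors' mean normalised count of each gene in control (blue) and dKO (red) on a log axis, joined by a black line where the authors' adjusted p was under 0.05 and by a grey line where it was not. The lines of Irf8, Batf, Batf3 and Bhlhe40 are black and run to the right from control to dKO, while the line of Irf4, from 16.5 to 89.6, is longer than any of them and grey.

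Promoters are shown for the called genes that the RefSeq table holds, Batf, Batf3 and Irf8, so that the E-boxes near their starts can be seen. Irf4, with the largest ratio of group means of the 10 genes, is shown too. Each window runs from 250 bases before to 50 bases after a RefSeq transcription start, 5′ to 3′ on the strand of the gene, in build GRCm38.p6, and capitals mark every CANNTG. The table matched 9 of the 10 genes, with 11 windows. Irf8 has 2 starts in it, and both windows are given. The windows are Batf on chromosome 12 (chr12:85686470-85686769), Batf3 on chromosome 1 (chr1:191098164-191098463), Irf8 on chromosome 8 (chr8:120736108-120736407 and chr8:120738389-120738688) and Irf4 on chromosome 13 (chr13:30748983-30749282), all on the plus strand.
Batf: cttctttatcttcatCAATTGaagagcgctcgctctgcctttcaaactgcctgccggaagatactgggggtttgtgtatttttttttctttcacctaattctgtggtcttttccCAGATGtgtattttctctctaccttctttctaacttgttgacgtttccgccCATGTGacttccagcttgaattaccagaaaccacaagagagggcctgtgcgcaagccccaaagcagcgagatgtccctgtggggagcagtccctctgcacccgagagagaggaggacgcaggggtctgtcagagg
Batf3: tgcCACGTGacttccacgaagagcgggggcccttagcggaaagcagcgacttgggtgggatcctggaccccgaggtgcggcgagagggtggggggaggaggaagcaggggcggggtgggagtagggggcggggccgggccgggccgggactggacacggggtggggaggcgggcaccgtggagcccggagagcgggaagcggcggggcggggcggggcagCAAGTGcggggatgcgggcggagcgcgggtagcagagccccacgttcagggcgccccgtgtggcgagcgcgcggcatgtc
Irf8, first start: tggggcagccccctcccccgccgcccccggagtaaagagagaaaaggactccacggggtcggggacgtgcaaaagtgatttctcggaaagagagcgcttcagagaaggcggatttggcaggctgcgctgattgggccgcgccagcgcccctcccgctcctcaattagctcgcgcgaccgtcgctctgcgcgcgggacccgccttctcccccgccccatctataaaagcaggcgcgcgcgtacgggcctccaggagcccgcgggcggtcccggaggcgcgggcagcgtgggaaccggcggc
Irf8, second start: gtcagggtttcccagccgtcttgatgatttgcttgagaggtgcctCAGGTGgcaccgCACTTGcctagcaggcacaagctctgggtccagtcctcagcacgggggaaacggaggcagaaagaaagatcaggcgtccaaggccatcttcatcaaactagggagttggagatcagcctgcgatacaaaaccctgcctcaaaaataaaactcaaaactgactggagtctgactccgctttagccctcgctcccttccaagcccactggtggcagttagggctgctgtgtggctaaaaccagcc
Irf4: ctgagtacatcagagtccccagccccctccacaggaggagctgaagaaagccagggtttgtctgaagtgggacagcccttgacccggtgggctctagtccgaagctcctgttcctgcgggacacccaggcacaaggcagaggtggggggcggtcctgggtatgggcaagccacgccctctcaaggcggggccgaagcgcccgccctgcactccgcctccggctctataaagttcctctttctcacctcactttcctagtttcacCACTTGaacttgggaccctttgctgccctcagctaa

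The Batf window held 3 E-boxes, at -235, -136 and -85 from the start, and none of them was CAGCTG or CAGGTG. Batf3 held CACGTG, the form that clock-type factors such as BHLHE40 bind, at -247, and CAAGTG at -30. The first Irf8 start had no CANNTG, and the second had CAGGTG at -205 and CACTTG at -193. Irf4 had CACTTG at 15 bases into the transcript. Of the other members, Prdm1 had CATTTG at -168 and CAGGTG at -87, and the first of 2 Irf1 windows had CAGCTG at -139. In all, 6 of the 11 windows held a CANNTG, which reads the same on both strands, beside 72.3% of 32851 promoter windows of the same length. Read on both strands, CAGGTG was in 2 of the 11 windows, CAGCTG in 1 and CACGTG in 1, and 20.2%, 16.3% and 7.15% of all windows held them. These forms are also counted among the CANNTG matches. The AP-1 site TGANTCA was found once, in Prdm1 at -48, and in 7.81% of all windows. The IRF site, GAAA and GAAA parted by NN, was found only in the Irf2 window among the 11, and in 3.44% of all windows. The Ets-IRF site, GGAA and GAAA parted by NN, was in the Irf2 and Bach2 windows and in 2.72% of all, and it can overlap the IRF site. A match is a run of letters and not a bound site.

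Batf rose 1.96-fold in dKO, from a mean of 292 to 573 by the authors' deposited table (the authors' adjusted p = 2.07e-05). This was the smallest adjusted p of the 10 genes. The control mean fits 3 sets of whole reads, and the data do not show which is right. In the sets, the control libraries of size factor 0.823, 0.952 and 1.02 held 49, 89 and 740 reads, or 166, 187 and 489, or 283, 285 and 238. The dKO mean fits 2 sets, of 568, 583 and 728 reads or of 568, 956 and 327 reads in the libraries of size factor 1.04, 1.08 and 1.16. In 2 of the 6 combinations of sets every dKO library lay above every control library, and in the other 4 the groups overlapped. The dKO library of size factor 1.04 had the same 568 reads in both sets, a normalised count of 547.

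Batf3, the second BATF gene and a factor of the dendritic cells that present antigen to CD8 T cells, rose 3.04-fold, from a mean of 26.4 to 80.4 by the authors' deposited table (the authors' adjusted p = 0.0223). Its reads were 23, 21 and 30 in the control libraries and 101, 111 and 47 in the dKO libraries, in the order of their size factors. As normalised counts these were 27.9, 22.1 and 29.3 in control (mean 26.4 ± 3.85, SD, n = 3) and 97.3, 103 and 40.7 in dKO (80.4 ± 34.5, SD, n = 3). Every dKO library was above every control library, and the dKO library of size factor 1.16 stood below the other two. An exact permutation test over the 6 libraries, two-sided, gave p = 0.1, the smallest that 3 against 3 allow. Leaving out one library at a time gave 2.61-fold to 3.79-fold. Batf2, the third BATF gene, was listed at 0 in control and 0.930 in dKO by the authors' deposited table. The dKO value was under the 0.963 that a dKO mean of 0 was set to.

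Irf8, a factor of dendritic cells, monocytes and early B cells, rose 2.94-fold from a mean of 183 to 536 by the authors' deposited table (the authors' adjusted p = 0.00314). The control mean fits 60, 9 and 477 reads or 177, 107 and 226 reads in the libraries of size factor 0.823, 0.952 and 1.02. In dKO it fits 418, 500 and 856 or 418, 873 and 455 reads in the libraries of size factor 1.04, 1.08 and 1.16. With the second control set the control libraries were at normalised counts of 112 to 221, and every dKO library lay above them in both dKO sets. With the first control set, the control library of size factor 1.02 was at 466, above the lowest dKO library. The groups were thus apart in 2 of 4 combinations.

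Bhlhe40 rose 1.78-fold, from a mean of 335 to 597 by the authors' deposited table (the authors' adjusted p = 0.0190). Its means fit 4 sets of control reads and 2 sets of dKO reads, and the groups were apart in 2 of the 8 combinations. In the control set that lay apart from dKO, the libraries of size factor 0.823, 0.952 and 1.02 were at normalised counts of 318, 402 and 285. The other 3 control sets reached 775, 530 and 505 in their highest library and overlapped the dKO libraries. Over both dKO sets the library of size factor 1.04 was at 524, and the lowest dKO value in either was 425. Of the 4705 merged exon bases of the gene, 118 are shared with 0610040F04Rik on the opposite strand in the GENCODE M21 annotation. The strand setting of the counting is not given in the sources used here, so it is unknown which gene reads in these shared bases were counted for. For Bhlhe41, its closest relative, the authors' deposited table lists 0 in both groups.

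**Figure D2:**
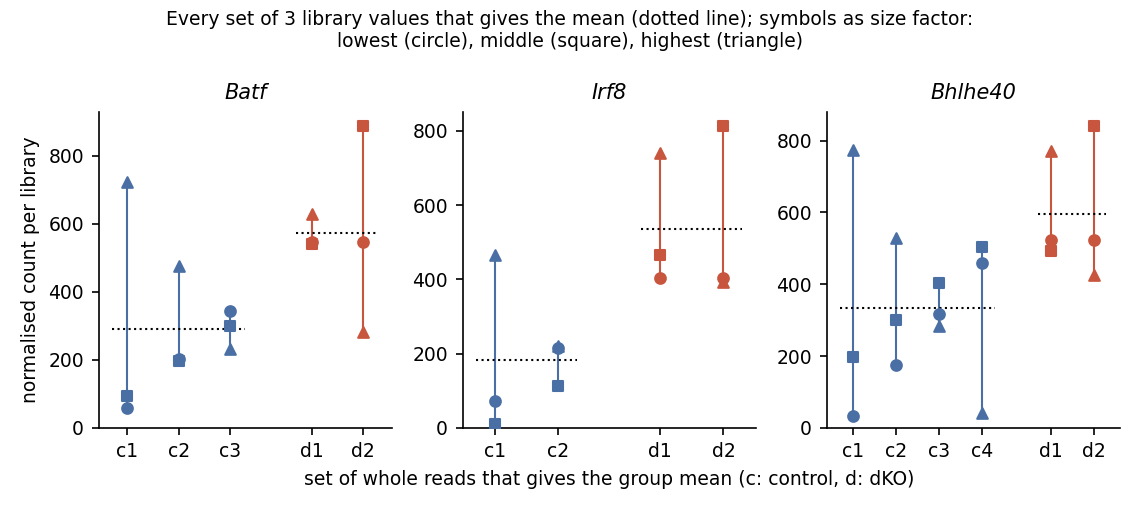
Normalised count per library in every set of whole reads that gives the group mean, for Batf, Irf8 and Bhlhe40, with control sets in blue, dKO sets in red and the group mean as a dotted line. The Irf8 control set c2, the Batf control sets c2 and c3 and the Bhlhe40 control set c3 lie below all libraries of at least 1 dKO set. The Batf control set c1, from 59.5 to 722, spans the dKO mean.

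Irf4, the IRF factor of activated lymphocytes and plasma cells, had the largest ratio of means of the 10 genes and did not pass. Its means were 16.5 in control and 89.6 in dKO by the authors' deposited table, a ratio of 5.42 (the authors' adjusted p = 0.255). The control libraries held 4, 11 and 34 reads and the dKO libraries 54, 34 and 214, in the order of their size factors. The normalised counts were 4.86, 11.6 and 33.2 in control (16.5 ± 14.8, SD, n = 3) and 52.0, 31.6 and 185 in dKO (89.6 ± 83.4, SD, n = 3). The dKO library of size factor 1.16 was far above all others, and the control library of size factor 1.02 lay above the lowest dKO library, so the groups overlapped. Each dKO library was above the control median, and 2 of 3 were above every control library. An exact permutation test, two-sided, gave p = 0.2. The ratio was 2.53 once the dKO library of size factor 1.16 was left out, and 10.9 once the control library of size factor 1.02 was. The other 4 ways of leaving out one library gave 4.01 to 7.17.

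Prdm1 and Bach2, whose products are repressors with opposing parts in effector differentiation, both failed to pass. Prdm1 had means of 83.7 and 147 by the authors' deposited table, a ratio of 1.76 (the authors' adjusted p = 0.132). Its reads were 111, 81 and 32 in control and 183, 124 and 174 in dKO, which are normalised counts of 135, 85.1 and 31.2 (83.7 ± 51.8, SD, n = 3) and 176, 115 and 151 (147 ± 30.6, SD, n = 3). The control libraries differed more among themselves than the dKO libraries did, and the highest control library was above the lowest dKO library. An exact permutation test, two-sided, gave p = 0.2. Leaving out one library at a time gave ratios of 1.34 to 2.53.

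Bach2 had means of 128 in control and 95.4 in dKO by the authors' deposited table (the authors' adjusted p = 0.593). The control libraries held 78, 172 and 111 reads, or normalised counts of 94.7, 181 and 108 (128 ± 46.2, SD, n = 3). The dKO libraries held 130, 54 and 128 reads, or 125, 50.2 and 111 (95.4 ± 39.8, SD, n = 3). The groups overlapped, and 2 of the 3 dKO libraries were above the control median. An exact permutation test, two-sided, gave p = 0.6. The lower dKO mean rested on the highest control library and the lowest dKO library: the control mean was 1.06 times the dKO mean once the control library of size factor 0.952 was left out, and 1.08 times once the dKO library of size factor 1.08 was. Of the 9940 merged exon bases of Bach2, 537 are shared with its antisense gene Bach2os in GENCODE M21, so reads in those shared bases are open to the same doubt.

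**Figure D3:**
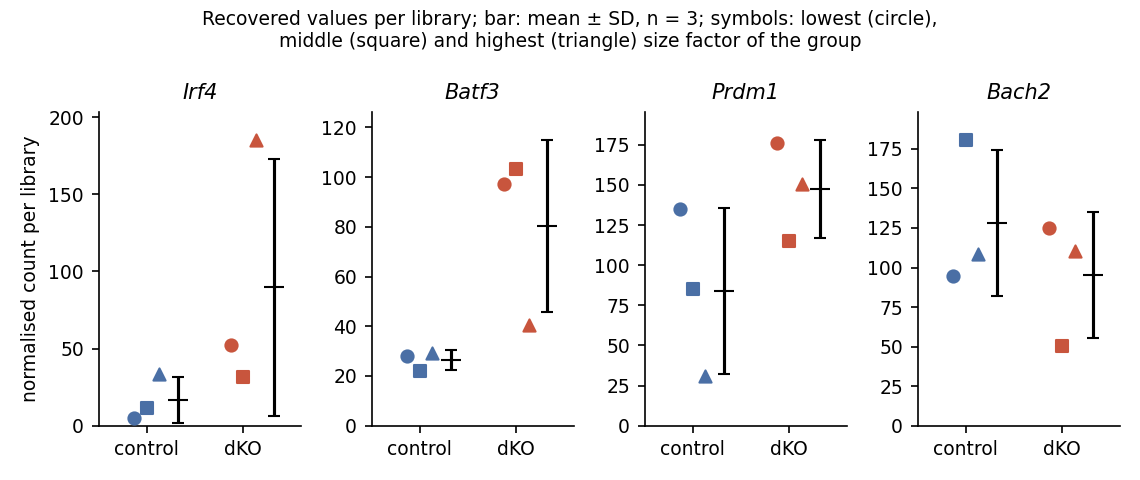
Normalised count in each library for the 4 genes whose reads could be recovered in both groups, with the mean and SD of 3 libraries as a black bar beside the points. The Batf3 groups do not overlap, the Irf4 mean in dKO is carried by 1 library at 185, and the Prdm1 and Bach2 groups overlap.

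Of these 4 genes Batf3 was the one without overlap. Among 3081 genes with a mean of at least 10 and reads recovered in both groups, 21.3% had every dKO library above every control library, and 40.1% had no overlap in either direction.

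Irf1, Irf2 and Irf5, the 3 IRF members with the highest levels per kilobase, did not pass. Irf1 had means of 3596 and 4208 by the authors' deposited table (log2 change 0.23, authors' adjusted p = 0.444). Irf2 had means of 1450 and 1710 by the authors' deposited table (log2 change 0.24, the authors' adjusted p = 0.212). Irf5, a factor of inflammatory cytokine expression in myeloid and B cells, had means of 630 and 474 by the authors' deposited table (-0.41, authors' adjusted p = 0.0778). The means of Irf1 and Irf2 are too high for reads per library to be recovered, and those of Irf5 fit 7 control sets and 2 dKO sets, with an overlap of the groups in all 14 combinations. Exons of Irf5 share 411 bases with those of Tnpo3 on the opposite strand, and those of Irf1 share 135 with Gm17334.

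Levels of different genes can be compared only per length. Per kilobase of merged exons in GENCODE M21 (GRCm38), Irf1 had the highest mean normalised count, 904 in control and 1058 in dKO. Irf5 (217 and 163), Batf (208 and 408) and Irf2 (196 and 231) came next in control, followed by Bhlhe40 (71.2 and 127) and Irf8 (25.9 and 76.0). The lowest control levels per kilobase were those of Batf3 (16.5 ± 2.41, SD, n = 3), Prdm1 (15.0 ± 9.29), Bach2 (12.9 ± 4.64) and Irf4 (3.37 ± 3.02). In control, Batf3, Prdm1 and Bach2 differed from each other by less than the spread of Prdm1. In dKO the same 4 genes were at 50.3 ± 21.6 for Batf3, 26.4 ± 5.49 for Prdm1, 18.3 ± 17.0 for Irf4 and 9.60 ± 4.0 for Bach2 (SD, n = 3). In dKO, Batf stood above Irf5. The SD of Irf4 in dKO was wide enough to take in the means of Bach2 and Prdm1. The authors' annotation may give other exon lengths.

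Of the IRF genes outside the 10, Irf7 and Irf9 rose. Irf7, the IRF induced by interferon, rose 6.92-fold from 800 to 5540 by the authors' deposited table. Irf9, a DNA-binding factor of the interferon response, rose 3.13-fold from 963 to 3015 by the authors' deposited table. Of the 7 other IRF and IRF2 binding protein genes, 3 rose, none fell and 4 did not pass, and the third that rose was Irf2bpl, 2.67-fold by the authors' deposited table. Irf3 (1455 and 1497) was among those that did not pass by the authors' deposited table. Of 23 interferon response and class I presentation genes, 15 rose, 1 fell and 7 did not pass (median log2 change 1.21). By the authors' deposited table, Ifngr2 rose 3.10-fold, whereas Psmb8, with means of 9358 and 8931, did not pass.

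The partners of BATF, IRF4 and IRF8 moved in both directions. Of 8 AP-1, Ets and Ikaros partner genes, 3 rose, 2 fell and 3 did not pass. Junb, whose product pairs with BATF, rose 1.76-fold from 1558 to 2737 by the authors' deposited table. Jund, with means of 260 and 1092 by the authors' deposited table, did not pass (the authors' adjusted p = 0.0895). Spi1, which encodes PU.1, the Ets partner of IRF4 and IRF8, fell 3.62-fold from 2025 to 559 by the authors' deposited table. The related Spib fell 25.5-fold from 232 to 9.08 by the authors' deposited table, while Ikzf3 rose 4.83-fold. Irf8 and Spi1 thus moved in opposite directions.

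Of 8 BACH1, NF-E2 and small Maf genes, none rose, 3 fell and 5 did not pass. Bach1 fell 3.23-fold from 487 to 151 by the authors' deposited table, where Nfe2 fell 5.91-fold from 4396 to 744 and Mafk fell 1.29-fold. Of 11 tested genes of the Blimp-1 and Bcl6 circuit, 2 rose, 4 fell and 5 did not pass. Myc, which Blimp-1 represses in B cells, fell 2.70-fold and Tle3, a corepressor, fell 2.88-fold by the authors' deposited table. Xbp1, a plasma cell factor downstream of Blimp-1, had means of 5079 in control and 4687 in dKO by the authors' deposited table, without passing. Bcl6, the factor that opposes Blimp-1, had normalised counts of 85.0, 67.2 and 70.3 in control and 73.2, 34.4 and 45.0 in dKO, which overlapped.

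Many other genes of effector lymphocytes rose. Of 17 other effector and innate factor genes, 11 rose, 3 fell and 3 did not pass (median log2 change 1.39). Rora, a factor of type 2 innate lymphoid cells, rose 5.71-fold and Maf 5.32-fold by the authors' deposited table. Of 27 tested cytokine, receptor and granule genes, 14 rose, 3 fell and 10 did not pass (median 2.01). Of 13 signalling genes that induce Irf4 and Batf in activated lymphocytes, 10 rose, none fell and 3 did not pass (median 0.62). Relb, a subunit of the alternative NF-kB pathway, rose 4.31-fold from 144 to 619 by the authors' deposited table. Nfkb1 (4295 and 4555) and Nfatc1 (3581 and 5040) did not pass by the authors' deposited table. Differences between these lists and the 10 genes were not tested.

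**Figure D4:**
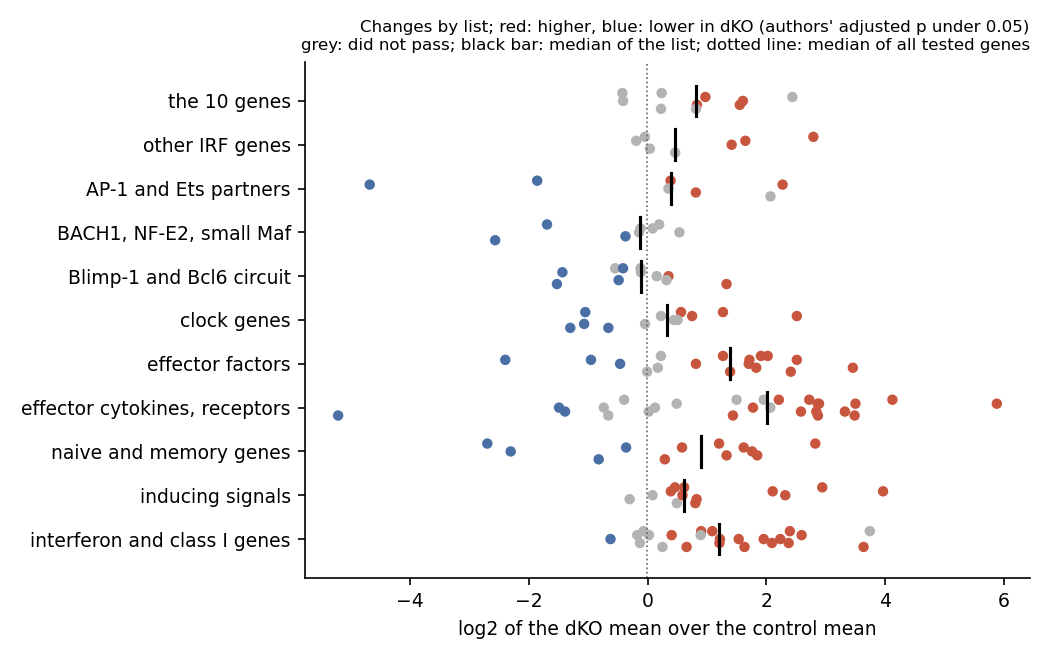
Log2 of the dKO mean over the control mean for each gene of each list, red where higher, blue where lower and grey where it did not pass, with genes at 0 in a group left out of the points and the list's median as a black bar. The median of the 10 genes, 0.82, lies between those of the inducing signals, 0.62, and of the effector factors, 1.39, and the BACH1, NF-E2 and small Maf list has red points nowhere.

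Irf8, Batf3 and Irf5 are also genes of dendritic, myeloid and B cells. In these bulk libraries, fewer cells of a type and less RNA per cell cannot be told apart. The summed means of 11 dendritic cell markers were 3450 in control and 2196 in dKO by the authors' deposited table, with 1 member higher, 3 lower and 5 not past the test. Tcf4 and Flt3, both lower, made up most of this sum, and Flt3 is also among the progenitor markers above. Leaving out these genes was a choice made after the values were seen. The other 9 markers summed to 616 in control and 830.5 in dKO by the authors' deposited table. Xcr1 alone gained more than this sum did. It was the only one of these 9 called higher, and Itgax the only one called lower. Siglech and Clec9a, which define plasmacytoid and cross-presenting dendritic cells, were listed at 0 in both groups, while Xcr1 rose from 41.7 to 369 and Itgax fell from 285 to 85.0 by the authors' deposited table. Zbtb46 had means of 16.5 and 8.79 by the authors' deposited table. Cd74, for which libraries could be recovered, was at 92.3, 93.5 and 94.7 in control and 317, 247 and 119 in dKO. The dKO library of size factor 1.16 was the lowest of the dKO libraries for Cd74, H2-Aa and Zbtb46, as it was for Batf3.

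Granulocyte and monocyte markers, 11 in number, summed to 8938 in control and 2613 in dKO by the authors' deposited table, with 1 higher, 3 lower and 4 not past the test. Cd14, S100a8 and S100a9 were listed at 0 in both groups. Mpo fell from 7310 to 1457 and Csf1r from 632 to 164 by the authors' deposited table. Mpo made up most of the sum in each group. Fcgr3, the 1 called higher, rose from 272 to 481 by the authors' deposited table. The 9 B and plasma cell markers summed to 302 and 356 by the authors' deposited table, with Pax5 and Ms4a1 at 0 in both groups, and Sdc1 rose. Of 6 tested NK cell markers, 5 rose and Gzma fell, with sums of 3991 and 3324 by the authors' deposited table. Gzma, with means of 3601 and 1283 by the authors' deposited table, made up most of the control sum. The lower sum in dKO was therefore due to Gzma alone, as the other 5 tested markers rose. None of 4 tested erythroid and 6 thymic epithelial markers passed. The part of such cells in the rises of Irf8, Batf3 and Batf was not tested.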

How the data were processed

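RNA-seq of 6 libraries, 3 control and 3 dKO, was grouped by the titles in the labels. Per the labels' protocols, RNA from few cells was amplified with a SMARTer low-input kit and sequenced on a HiSeq. Build mm9, TopHat2 2.0.14, bcl2fastq 1.8.4 and DESeq version 2 stand in the submitters' processing notes without roles. Not given in the sources used here are the annotation, counter and strand setting.

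One table was used. Per the file headers its signal values are group means of normalised counts, made by the authors. The authors also deposited a fold column, a ratio of dKO over control, with p-values and adjusted p-values per gene. No new test across genes was fitted, since the table holds group means. A gene was called at the authors' adjusted p under 0.05. Each fold and log2 change printed was computed from both means, with a group at 0 set to 3 reads over the group (1.21 in control, 0.963 in dKO).

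A group mean is a weighted sum of its libraries' whole reads. The weights were read from the lowest means, and reads were taken where 1 set of whole reads gave the printed mean within its rounding. Up to a mean of 100 this held for all 5259 control and all 5361 dKO values, and from 100 to 300 for 31.4% and 98.4%. The search was tested on simulated data. Exact permutation tests used these values. Python 3.11.15, numpy 2.4.6 and numba 0.67.0 were used.

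The members and the gene lists were chosen with earlier results of these data known. Named genes are the 10 members, Tcf3 and Tcf12, and per list up to 4 called genes, taken by adjusted p, and 3 genes that did not pass, taken by abundance. Bhlhe41, Bcl6, Kit, Siglech, Clec9a, Zbtb46, Cd14, S100a8, S100a9, Pax5 and Ms4a1 were named after their values were seen. Irf2bpl, Spi1 and Jchain were matched through RefSeq synonyms. Some genes of the lists are counted but not reported here by name. Alternatives were the call threshold, a filter on low means, a minimum fold, 2 other scalings, a pseudocount of 1 or 10, and leaving out each library.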

Additional observations from a re-analysis of the deposited data

How the results depend on the processing

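At an adjusted p under 0.01 the genes called higher among the 10 went from 4 to 2 (Irf8 and Batf), and with at least 2-fold also required they went to 2 (Irf8 and Batf3, since Batf rose 1.96-fold). At an adjusted p under 0.1 the genes called lower went from 0 to 1 (Irf5). With only genes of a mean of at least 10, adjusted again, the counts stayed at 4 and 0. Over all tested genes and over the other lists pooled, the counts of calls stayed within 1.5 times under the threshold of 0.01 and the filter. List by list, counted after the data were seen, 3 counts moved by more at 0.01: clock genes called lower went from 4 to 2, Blimp-1 circuit genes called higher from 2 to 1 and B cell markers called lower from 2 to 1. Rescaling to the same total, centring on genes with a mean of at least 100, or a pseudocount of 1 or 10 changed the sign of none of the 10 changes. Leaving out one library was possible for Irf4, Batf3, Prdm1 and Bach2 as a value with no test, and gave log2 changes of 1.34 to 3.45, 1.38 to 1.92, 0.42 to 1.34 and -0.67 to -0.09. Counts of calls without a library were not run, since reads of abundant genes could not be recovered. No paired analysis was possible because the table holds group means without replicate numbers. Depth limits Irf4 and Batf3 most, with 4 to 34 and 21 to 30 reads per control library.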

Other observations

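Clock genes, which share E-boxes of the CACGTG type with Bhlhe40, moved in both directions: of 12 tested, 4 rose, 4 fell and 4 did not pass. Cry2, a repressor of the clock, fell 2.09-fold by the authors' deposited table, from 711 to 340, and Per3 fell 2.07-fold. Nfil3, a clock output factor needed by innate lymphoid cells, rose 2.41-fold by the authors' deposited table. Nr1d1, with means of 406 and 475, and Nr1d2, with 588 and 800, did not pass by the authors' deposited table. Genes of naive or memory lymphocytes did not move as one group either. Of 12, 8 rose and 4 fell. Myb, a factor of progenitors, fell 4.93-fold, while S1pr1, the receptor for egress, rose 3.60-fold from 532 to 1914 by the authors' deposited table.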
